A study of Homo sapiens with 8 samples.

Results

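Deep coding positions are the single-base N1-methyladenosine (m1A) sites that lay in protein-coding sequence far from the start of their mRNA. The rule uses the table's annotation and no read counts. A position was kept when at least 1 line of the deposited table placed it in coding sequence, no line placed it in a 5' UTR, and its smallest transcript position over all lines was above 1000 nt. Mitochondrial positions and positions listed on both strands were left out. Of 9962 listed positions, 6493 were coding in at least 1 line, 6253 of these had no 5' UTR line, 6246 were not mitochondrial and 6100 were listed on 1 strand. The 1000 nt threshold left 2622 positions, in 1372 of the 4621 genes to which positions were assigned. Just inside the threshold, 1 nt beyond it, lay a position of MRPL37 with 7 reads in control 2 and one of HGS with 17 reads in siTRMT6 1. Just outside it, at position 1000, lay one of CTTN with 13 reads and one of ATP6V0D1 with 8 reads, both in siTRMT6 1.

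N1-methyladenosine carries a methyl group on the face of the base that pairs with other bases. TRMT6 and TRMT61A form the enzyme that places it in the T-loop of tRNA, where it stabilises the fold, and in some mRNA stems of similar shape. TRMT61A is the catalytic subunit, and TRMT6 is the partner that helps to bind the RNA. In mRNA, antibody-based maps have usually placed m1A near transcript starts; within a codon the methyl group can hinder pairing with tRNA. Coding sequence that lies far downstream of the start is found mainly in long mRNAs, which encode large scaffold, motor and chromatin proteins.

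Neuroblastoma cells received either a control or small interfering RNA against TRMT6 (siTRMT6), without other treatment named in the labels. The 8 samples comprise 2 input and 2 m1A libraries of each condition. Titles call the cells SK-N-BE while the cell line field has SK-N-AS, which are different neuroblastoma lines. RNA was selected on oligo(dT), fragmented and immunoprecipitated with an m1A antibody. The deposited table has 4 columns of counts, 2 per condition, taken here as the m1A libraries because the table lists m1A sites; the column names do not say so. The labels do not say whether replicates were separate cultures, so a p-value here reflects library-to-library spread, possibly technical. Input reads are not used here, so an amount of transcript and an amount of m1A cannot be told apart, nor can fewer cells and less RNA per cell.

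Control 1 held 8655 reads at 819 listed positions, control 2 held 46007 at 4269, siTRMT6 1 held 40771 at 3607 and siTRMT6 2 held 13812 at 1414. These totals cover the listed positions and are not the depth of the libraries. The silenced gene TRMT6 had no listed position, so its level could not be checked. Of 11 markers of the adrenergic neuroblastoma state, 8 had a listed position. Of 10 markers of the mesenchymal state, 4 had a position, and none of 5 markers of leukocytes, endothelium, epithelium and liver had one.

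The deep coding positions had 2023 reads at 175 positions in control 1, 12904 at 1144 in control 2, 11780 at 966 in siTRMT6 1 and 3643 at 368 in siTRMT6 2. Control 2 and siTRMT6 1 therefore held most of them. The median position had 9 reads in each control, 10 in siTRMT6 1 and 8 in siTRMT6 2. The highest had 53, 62, 61 and 41 reads in the same order, and the lowest had 3, 5, 4 and 3. Median counts were thus alike in the 4 libraries, although their totals were not.

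Deep coding positions were 21.4% of the listed positions of control 1 (95% Wilson interval 18.7 to 24.3), 26.8% of control 2 (25.5 to 28.1), 26.8% of siTRMT6 1 (25.4 to 28.3) and 26.0% of siTRMT6 2 (23.8 to 28.4). Control 1 had the lowest share, and its interval overlapped that of siTRMT6 2 but not those of the other libraries. These intervals cover counting error only, and reads without molecular identifiers are not independent molecules. The mean share was 24.1% ± 3.84 (SD, n = 2) in the controls and 26.4% ± 0.534 (SD, n = 2) in the siTRMT6 libraries. The difference of 2.32 percentage points was smaller than the spread between the controls (exact permutation test, two-sided, p = 1; adjusted over 4 classes 1; 2 against 2 cannot give less than 0.33). Without control 1 it was -0.39 and without control 2 it was 5.04. Early coding positions, at or before 1000 nt, were 41.5%, 34.8%, 34.2% and 33.9% of the positions in the same library order. Control 1 thus had the lowest deep share and the highest early share, and shares of 1 total move against each other. In reads, the deep coding share ran from 23.4% in control 1 to 28.9% in siTRMT6 1.

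**Figure D1:**
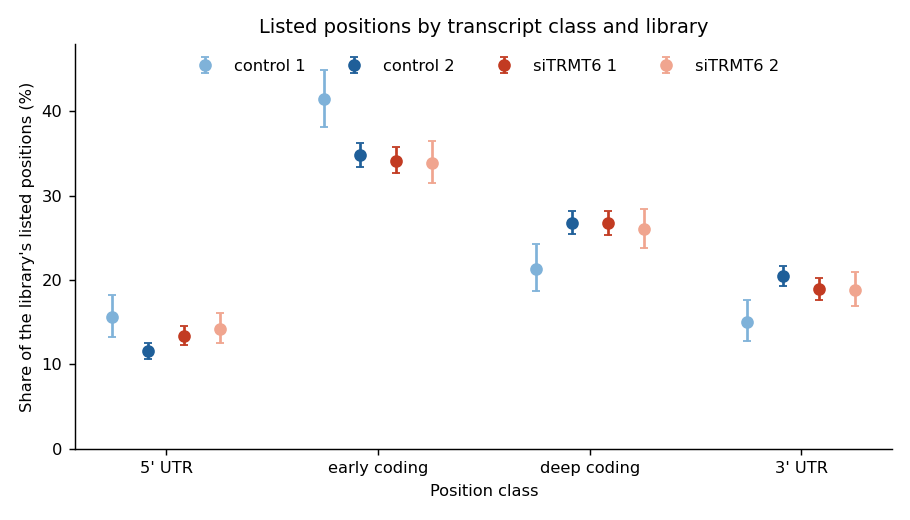
Share of each library's listed positions (y axis, percent) in 4 exclusive transcript classes (x axis), 1 point per library with its 95% Wilson interval. Control 1 lies at 21.4% in the deep coding class, below the other 3 libraries at 26.0% to 26.8%, and at 41.5% in the early coding class, above them.

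Along the transcript, the smallest position of a site had a median of 1843 nt, with quartiles at 1343 and 2769 nt and a maximum of 13344 nt. Between 1000 and 2000 nt lay 1447 positions, or 55.2%, while 148 lay between 5000 and 8000 nt and 45 beyond. The median was 9 reads up to 2000 nt and 10 reads in each of the 4 bins beyond. Counts at the positions did not fall with distance from the start. Of the control 1 positions, 61.7% lay between 1000 and 2000 nt, against 56.3% in control 2, 53.8% in siTRMT6 1 and 52.2% in siTRMT6 2. The positions higher in siTRMT6 were 48.5% of the first bin, 52.3% from 2000 to 3000 nt, 54.0% from 3000 to 5000 nt, 44.6% from 5000 to 8000 nt and 55.6% beyond, with no order along the transcript. For 1739 positions the transcripts gave different distances, with a median gap of 247 nt, and 97 positions were also listed in a 3' UTR of another transcript.

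The farthest position belonged to DYNC1H1, the heavy chain of cytoplasmic dynein, which moves cargo toward the microtubule minus end. It lay at transcript position 13344 (chromosome 14, 102047990) with 13 reads in siTRMT6 1. PKD1, which encodes polycystin-1, followed at 12699 with 21 reads in control 2; PKD1 has near-identical pseudogene copies, so its reads are uncertain. HERC2, a giant ubiquitin ligase that also has pseudogene copies, had 6 reads in siTRMT6 1 at 11884. PRKDC, the DNA-dependent protein kinase of double-strand break repair, had 10 reads in siTRMT6 1 at 11592. MACF1, which links microtubules and actin, had 6 reads in siTRMT6 1 at 11103, although another of its transcripts put the same base at 18014. None of these 5 bases was read in a second library.

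Few genes carried many deep coding positions. A single position was found in 766 genes, 2 in 326, 3 in 148 and 4 in 48. The 84 genes with 5 or more held 568 positions, 21.7% of the total. Without control 2 there were 32 such genes, and without siTRMT6 1 there were 29. The farthest position of a gene had a median of 1552 nt in genes with 1 position, 2219 nt in those with 2 to 4 and 3165.5 nt in those with 5 or more. Across the 1372 genes, the number of positions and the farthest position had a Spearman rho of 0.41, and a gene with more positions has more chances of a far one. With the genomic span of the gene in RefSeq the rho was 0.16 over 1369 genes. Both values describe genes that share the same 4 libraries. The median position had 8 reads in genes with 1 position and 11 in genes with 5 or more.

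**Figure D2:**
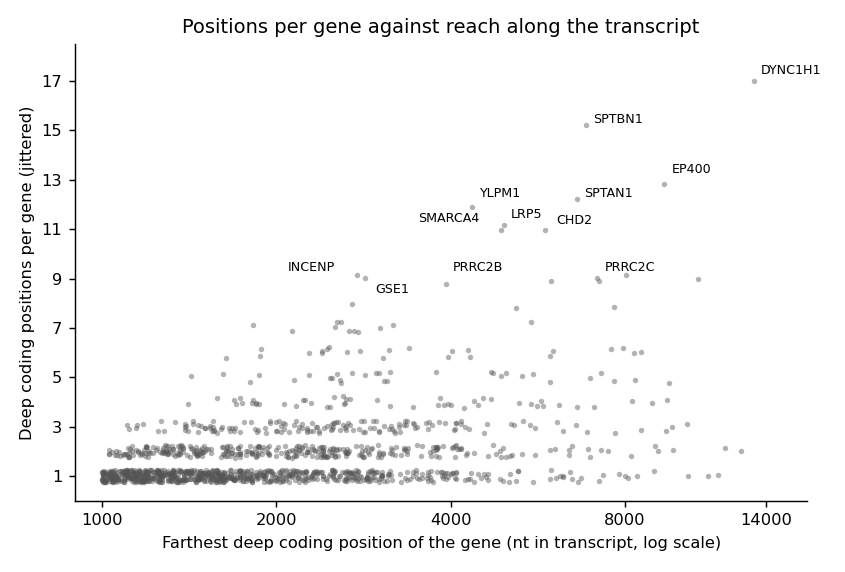
Deep coding positions per gene (y axis, jittered) against the gene's farthest deep coding position in nt (x axis, log scale), 1 point per gene. DYNC1H1 has 17 positions and reaches 13344 nt, and 766 of the 1372 genes sit at 1 position.

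DYNC1H1 had the most positions, 17, within its RefSeq span on chromosome 14 from 101964573 to 102056443. They ran from transcript position 3658 to 13344 and had 8 to 24 reads each. Its reads were 18 at 1 position in control 1, 145 at 8 in control 2, 55 at 4 in siTRMT6 1 and 42 at 4 in siTRMT6 2. Between 11512 and 11542 nt, 3 libraries had a position within 30 nt of one another: siTRMT6 1 had 12 reads at 102039142, siTRMT6 2 had 9 at 102039151 and control 2 had 19 at 102039172. At 5563 and 5570 nt siTRMT6 2 and control 2 had 8 and 16 reads. The 4 positions of siTRMT6 1 lay from 9277 to 13344 nt, and 7 of the 8 of control 2 lay from 3658 to 8433 nt.

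The spectrins, which form the lattice under the plasma membrane and along axons, were also among these 12 genes, and SPTBN1 came next after DYNC1H1. SPTBN1, the beta chain, had 15 positions from 1781 to 6838 nt (gene on chromosome 2, 54456327 to 54671446): no reads in control 1, 129 at 6 positions in control 2, 60 at 3 in siTRMT6 1 and 75 at 6 in siTRMT6 2. Each of the 3 siTRMT6 1 positions had a siTRMT6 2 position 21 to 82 nt away, such as 23 reads at 54629326 and 18 at 54629244. SPTAN1, the alpha chain, had 12 positions from 1102 to 6609 nt (chromosome 9, 128552587 to 128633662). Its reads were 0 in control 1, 92 at 7 positions in control 2, 30 at 4 in siTRMT6 1 and 9 at 1 in siTRMT6 2. Both chains lacked control 1 reads, as did LRP5 and PRRC2B among the 12 genes with the most positions. Control 1 had deep coding reads in only 166 of the 1372 genes. The chains differed in the order of the other libraries.

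Chromatin remodelling ATPases were 3 of the 12 genes with the most positions. EP400, of the TIP60 complex, had 13 positions, with 9, 46, 52 and 22 reads in control 1, control 2, siTRMT6 1 and siTRMT6 2. One of them, at 132021235 of chromosome 12, had 7 reads in siTRMT6 1 and 4 in siTRMT6 2. SMARCA4, the BRG1 ATPase of SWI/SNF, had 11 positions with 21, 54, 18 and 44 reads in the same order. CHD2, a chromodomain remodeller, had 11 positions with 6, 45, 19 and 12 reads. In SMARCA4, unlike EP400, siTRMT6 2 had more reads than siTRMT6 1, although it is the smaller library.

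The other genes in this group were of mixed function. YLPM1, a nuclear protein phosphatase partner, had 12 positions with 12, 61, 42 and 7 reads in control 1, control 2, siTRMT6 1 and siTRMT6 2. LRP5, a Wnt co-receptor, had 11 positions with 0, 36, 35 and 12 reads, none above 10. GSE1, a transcription cofactor, had 9 positions with 27, 62, 95 and 26 reads, none below 13. The RNA-binding proteins PRRC2B and PRRC2C had 9 each: PRRC2B had 0, 58, 105 and 6 reads, and PRRC2C had 19, 54, 41 and 11. INCENP, the scaffold of the chromosomal passenger complex in mitosis, had 9 positions with 40, 31, 72 and 14 reads. INCENP was the only one of the 12 genes in which control 1 had more deep coding reads than control 2.

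**Figure D3:**
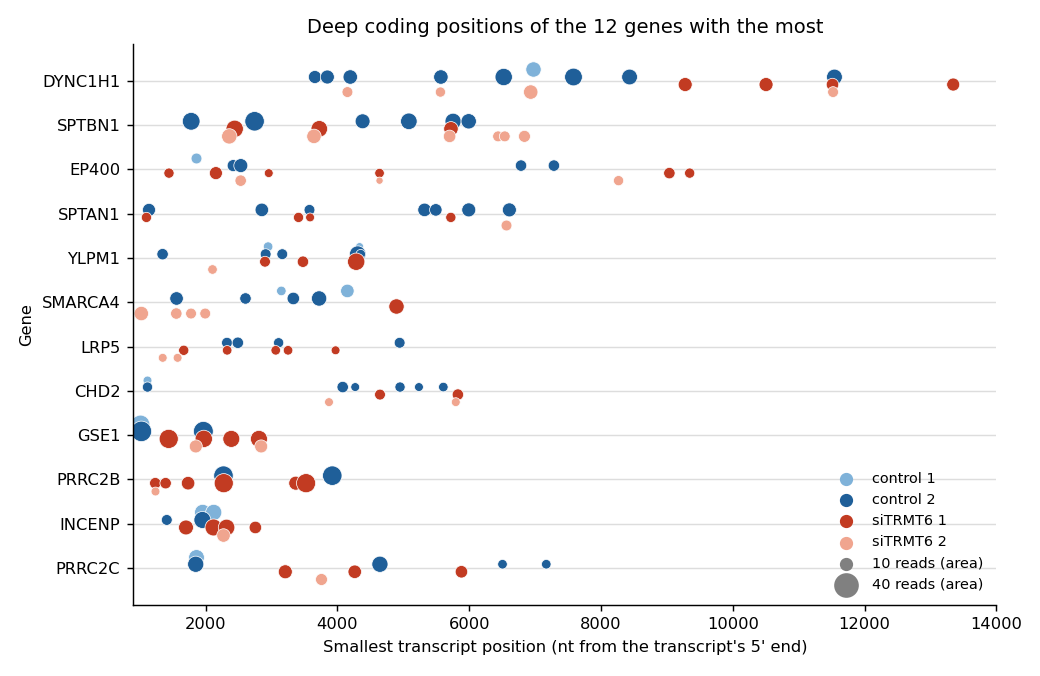
Deep coding positions of the 12 genes with the most (y axis) by smallest transcript position in nt (x axis); colour gives the library and area the reads. Where transcripts differ, as in YLPM1 and PRRC2B, neighbouring points can belong to different transcripts. Positions of different libraries often lie side by side, as in DYNC1H1 at 11512 to 11542 nt, where 3 libraries had 9 to 19 reads.

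The highest counts lay in other genes. SRRM2, a scaffold of nuclear speckles, had 5 positions, all of them among the 3 highest of a library: 53 reads in control 1 at 2762649 of chromosome 16, 61 in control 2 at each of 2761789 and 2765290, 61 in siTRMT6 1 at 2761805 and 60 at 2765536. The 2761789 and 2761805 positions, 1 from each condition, were 16 nt apart with 61 reads each. MKI67, the proliferation marker that coats mitotic chromosomes, had 62 reads in control 2 at 128105312 of chromosome 10. MAP1B, which stabilises axonal microtubules, had the highest counts of siTRMT6 2, 41 at 72196666 and 40 at 72199975 of chromosome 5. Beside these, at 72196690 and 72199973, control 2 had 60 and 58 reads. Thus the same stretches of MAP1B were listed in both conditions at different bases.

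MYCN, the oncogenic transcription factor of neuroblastoma, had 50 reads in control 1 at 15942821 of chromosome 2. ATN1, a transcriptional corepressor, had 31 reads in control 1 at 6937482 of chromosome 12. CHGA, chromogranin A of secretory granules, had 61 reads in siTRMT6 1 at 92931669 of chromosome 14. ANKRD11, a chromatin regulator, had 35 reads in siTRMT6 2 at 89282312 of chromosome 16. All 4 bases were read in a single library.

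The authors' deposited table called 1313 deep coding positions higher and 1309 lower in siTRMT6 at an adjusted p below 0.05, against 49.6% of all listed positions higher and 50.4% lower. The deep coding positions split 50.1% higher, near that background. Over the whole table, reads came from siTRMT6 libraries alone at 49.6% of positions and from controls alone at 50.3%. The authors' deposited table gave log2 fold changes from -7.14 (the MKI67 position of control 2) to 6.75 (CHGA). These calls pool the replicates. Of the 2622 positions, 2593 had reads in 1 library, 27 in 2 and 2 in 3, so nearly every call compares 1 library with the others.

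Reads in more than 1 library were found at 29 positions, 1.11% of the deep coding positions against 1.41% of all listed positions. Both controls and no siTRMT6 library had reads at 8, both siTRMT6 libraries and no control at 16, and both conditions at 5. The smaller library of a condition limits how many bases its replicates can share. Control 1 had 175 deep coding positions and siTRMT6 2 had 368. The split of 8 and 16 has no share over all listed positions beside it and is not read as a difference. ARID1B, a SWI/SNF subunit, had 16 and 15 reads in control 1 and control 2 at 156779450 of chromosome 6. PLK1, a mitotic kinase, had 12 and 16 at 23684044 of chromosome 16. TRAF3IP1, a protein of cilia, had 13 and 13, and CTCF, which organises chromatin loops, had 9 and 11.

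Of the 5 positions shared by conditions, POM121C, a nuclear pore protein with near-identical copies, had 17, 19, 0 and 15 reads in control 1, control 2, siTRMT6 1 and siTRMT6 2 at 75422456 of chromosome 7. TPX2, a spindle assembly factor, had 10, 14, 0 and 8 at 31798535 of chromosome 20. PDZD4 had 0, 23, 0 and 11, DBH, which makes noradrenaline, had 0, 17, 0 and 7, and INF2, an actin-polymerising formin, had 0, 12, 0 and 4. In all 5, siTRMT6 1 had no reads and control 2 had more than siTRMT6 2. Control and siTRMT6 reads met at 0.382% of the control positions and 0.379% of the siTRMT6 positions, against 0.279% and 0.283% over all listed positions, where they met at 14.

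**Figure D4:**
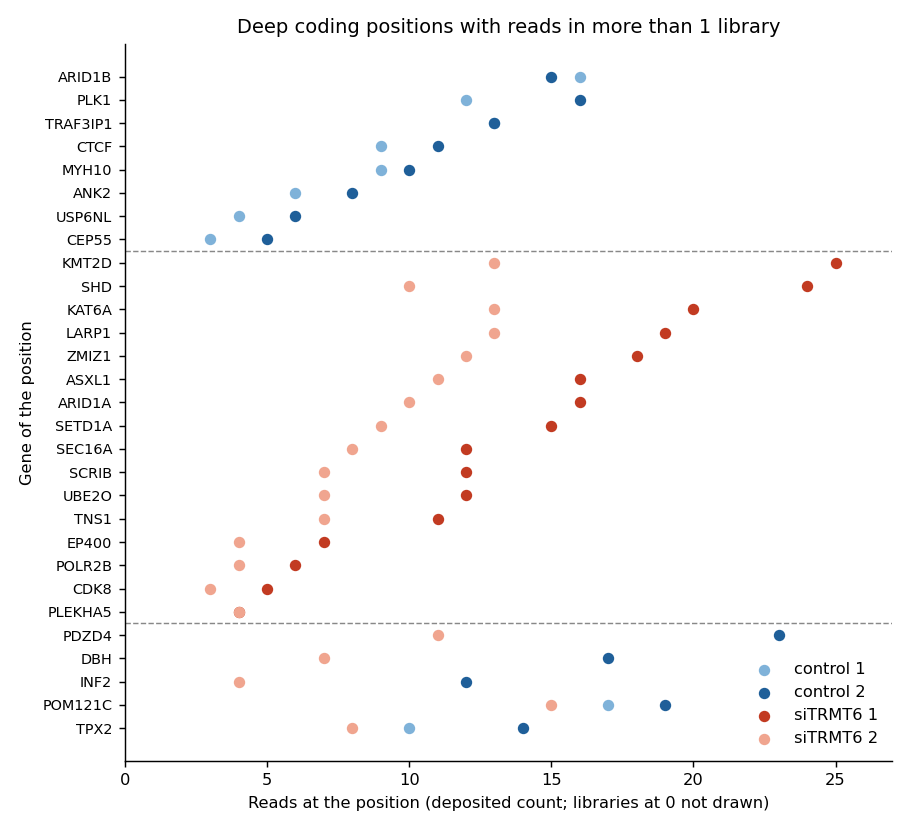
Reads (x axis) at the 29 deep coding positions with reads in more than 1 library (y axis, by gene), 1 point per library; dashed lines part positions of both controls, of both siTRMT6 libraries and of both conditions. Where both siTRMT6 libraries have reads, siTRMT6 2 lies at or below siTRMT6 1, from 13 against 25 reads in KMT2D to 4 against 4 in PLEKHA5.

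At bases shared by replicates the counts kept a nearly fixed ratio. The 10 bases shared by the controls had 99 reads in control 1 and 117 in control 2, and from base to base their ratio varied by less than the sampling noise (chi-square per degree of freedom 0.148). The 16 bases shared by the siTRMT6 libraries had 222 reads in siTRMT6 1 and 135 in siTRMT6 2 (0.143). These bases were chosen because both libraries listed them. Those of the controls were 5.71% of the control 1 positions and 0.874% of those of control 2. So small an overlap cannot show that the libraries are independent, because nearly every listed position had reads in a single library. The libraries were kept as separate replicates because the labels number them so, and their independence was not tested. Summed over all listed positions, control 2 held far more reads than control 1, unlike at the shared bases.

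Taking the libraries as 2 replicates per condition, edgeR's quasi-likelihood test was run over the whole table. A filter on low counts left 34 positions, of which 22 (64.7%) were called at a Benjamini-Hochberg adjusted p below 0.05, 38.2% higher and 26.5% lower. Of the deep coding positions 12 passed the filter and 8 were called, 66.7%, all higher in siTRMT6. These 8 had no control reads, so they passed the filter only through the group in which they were high, and neither the call rate nor the direction is support for a difference. Their reads are given as a description. KMT2D, a histone H3 lysine methyltransferase, had 0, 0, 25 and 13 reads in control 1, control 2, siTRMT6 1 and siTRMT6 2 at 49040808 of chromosome 12, transcript position 6962. KAT6A, a histone acetyltransferase, had 0, 0, 20 and 13 at 41933394 of chromosome 8 (5238 nt). LARP1, a regulator of mRNAs for ribosomal proteins, had 0, 0, 19 and 13 at 154802286 of chromosome 5 (1789 nt).

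The transcriptional coactivator gene ZMIZ1 had 0, 0, 18 and 12 reads at 79298554 of chromosome 10 in the same library order. ASXL1, a Polycomb-associated protein, had 16 and 11 siTRMT6 reads (chromosome 20, 32434835). The SWI/SNF subunit gene ARID1A had 16 and 10 (chromosome 1, 26774963). SETD1A, a histone H3 lysine methyltransferase, had 15 and 9 at 30979229 of chromosome 16, and SHD, an adaptor protein, had 24 and 10 at 4283184 of chromosome 19. No control library had listed reads at these bases. Set against a floor of 3 counts over both controls, scaled by the listed reads, the values were at least 8.01-fold (SETD1A) to at least 12.7-fold (KMT2D) higher. Whether 0 in the table stands for no reads is not given in the sources used here, and the bounds hold only if it does. The bases passed the filter through the same reads, so the bounds do not estimate a difference between conditions.

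Control reads elsewhere in the same genes lay at varying distances. For KMT2D, control 2 had 27 reads 28 nt from the called base, and for LARP1 it had 20 reads 12 nt away. For ZMIZ1, ARID1A, SETD1A and SHD the nearest position with control reads lay 4971, 4777, 4932 and 2886 nt away, and for ASXL1 76133 nt away on the genome. KAT6A had no other listed position.

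The calls did not hold under other tests. Without the filter edgeR called 0 deep coding positions, with a smallest adjusted p of 0.519. DESeq2 called 0, with a smallest adjusted p of 0.0712 and 4 at an unadjusted p under 0.05. With the replicate number as a block edgeR called 0, with a smallest adjusted p of 0.770. Leaving out 1 library leaves 1 library in a condition, so whether calls are lost in such fits says nothing about stability. These fits tested 104 to 540 deep coding positions. Where the 8 called positions were tested, their edgeR log2 ran from 6.72 (ARID1A) to 7.71 (KMT2D). With all libraries it ran from 6.73 (SETD1A) to 7.37 (KMT2D). With equal library sizes set before the filter, 10 of 13 were called against 78.4% of all positions tested, 7 higher and 3 lower. The lower ones were ARID1B, PLK1 and TRAF3IP1, which had not passed the filter at the listed library sizes. These 3 had no siTRMT6 reads, so they too passed the filter only through the group in which they were high. Their calls are no support for a difference. In the authors' deposited table all but 1 of the 9962 positions already had an adjusted p below 0.05 for this contrast, so the edgeR p-values of single positions come from preselected positions.

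Positions within 200 nt on 1 strand were joined into 2136 regions, of which 431 held 2 or more positions with a median width of 25 nt. Reads came from 1 library in 1686 regions, from 2 in 389, from 3 in 55 and from all 4 in 6. Both conditions were present in 342 regions, 26.97% of the 1268 with control reads and 28.3% of the 1210 with siTRMT6 reads. Among the other nuclear positions the share of control regions was 27.97%. Without control 2 it was 44.6%, and without siTRMT6 1 it was 8.67%, so the share depends on which large library is present.

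The 6 regions with all 4 libraries lay in POM121C, LARP1, TPX2, CTCF, MYH10 and CHD7. In CTCF, within 12 nt of chromosome 16 (67636827 to 67636839), control 1 had 9 reads, control 2 had 11, siTRMT6 1 had 12 and siTRMT6 2 had 8, at 3 bases. In MYH10, a non-muscle myosin heavy chain, the reads were 9, 10, 10 and 8 within 6 nt of chromosome 17 (8513820 to 8513826). In CHD7, a neural crest chromatin remodeller, they were 6, 7, 7 and 6 at 4 bases within 42 nt. The conditions overlapped in these 3 regions.

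LARP1 had 15, 20, 19 and 13 reads in control 1, control 2, siTRMT6 1 and siTRMT6 2 within 41 nt, POM121C had 17, 19, 23 and 15 within 50 nt, and TPX2 had 10, 14, 10 and 8 within 5 nt. In LARP1 the base called higher in siTRMT6 is 1 of 3 in its region, and over the region the conditions overlapped. The called KMT2D base is 1 of 2 in its region, which had 0, 27, 25 and 13 reads in the same library order. With each condition's listed reads as the scale, the log2 ratio of siTRMT6 to control was -0.13 for the LARP1 region and -0.41 for the TPX2 region. Over the 342 regions with both conditions its median was -0.18 (quartiles -0.46 and 0.09), and 18 differed by 2-fold or more. On the scale of the authors' log2 each is 0.19 lower. Leaving out 1 library moved the median from -2.48 (without control 2) to 1.25 (without siTRMT6 1), so the listed reads do not give a firm scale. The largest pooled differences were in PLK1, with 28 control and 8 siTRMT6 reads, and GGA1, a Golgi sorting adaptor, with 8 and 19. By library, PLK1 had 12, 16, 0 and 8 reads in control 1, control 2, siTRMT6 1 and siTRMT6 2, and GGA1 had 8, 0, 12 and 7. Each pooled ratio thus set 2 libraries of a condition against 1 of the other.

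Neighbouring positions of a gene came from different libraries. Of 2932 pairs of deep coding positions within 1 gene, 841 came from the same library and 2091 from different ones. Along the genome, 537 pairs of different libraries lay within 200 nt, 164 of them within 10 nt, and no pair of the same library did. The closest pair of the same library lay 326 nt apart, in PRR14. YTHDF2, an RNA-binding protein that reads methylated adenosine, had 1 of the 5 closest pairs: 6 reads in siTRMT6 1 at 28743407 and at 28743762 of chromosome 1, 355 nt apart.

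Along the transcript the picture differed. With introns removed, 76 pairs of the same library lay within 200 nt of each other, and an intron separated the bases in all 76. Without control 2 there were 40 such pairs, and without siTRMT6 1 there were 47. In TPX2 the bases of such a pair were 55 nt apart in the mRNA and 2472 nt apart in the genome. In DHX9, an RNA helicase, they were 57 and 6316 nt apart. The smallest spacing within a library was therefore 326 nt in the genome and 55 nt in the mRNA. How the positions were called is not given in the sources used here.

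**Figure D5:**
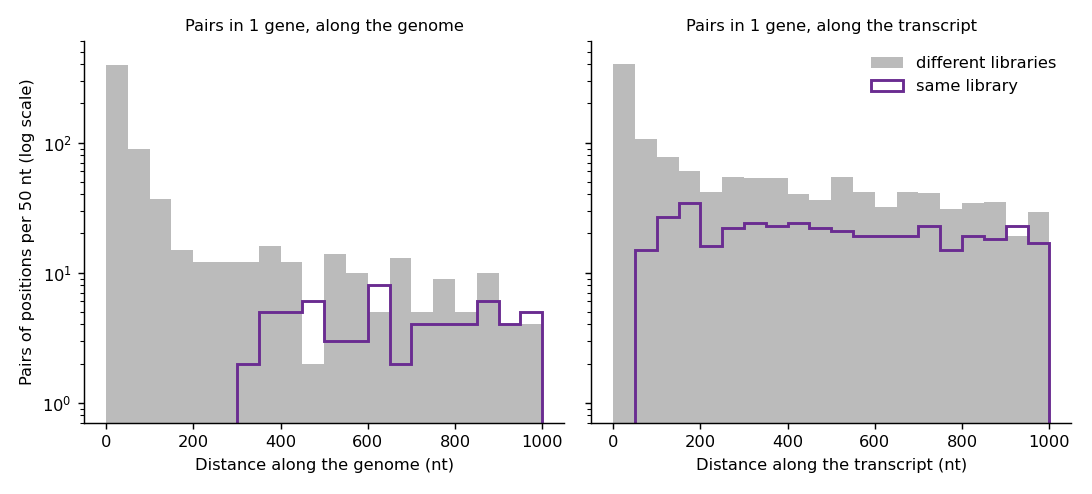
Pairs of deep coding positions of 1 gene per 50 nt of distance (y axis, log scale) along the genome and along the transcript (x axes, nt), for pairs of different libraries (grey) and of the same library (line). Pairs of the same library start at 326 nt along the genome and at 55 nt along the transcript, where introns are not counted.

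Summed over a gene, deep coding reads allow libraries to be compared that listed different bases. In 452 genes both conditions had deep coding reads, in 494 only the controls and in 426 only siTRMT6. Of the 606 genes with 2 or more positions, 450 had reads of both conditions. The other 766 genes had 1 position each, and nearly every position had reads in 1 library. The counts therefore do not mark genes as particular to a condition. With the other listed reads of each gene as separate sums in the same fit, 859 sums passed the filter and edgeR called 0 (0%); 136 (15.8%) had an unadjusted p under 0.05. Among the 225 deep coding sums tested edgeR called 0, with a smallest adjusted p of 0.283. An unadjusted edgeR p under 0.05 was found for 33 of them (14.7%). DESeq2 called 0, with 10 at an unadjusted p under 0.05. None of the 12 genes with the most positions was among the 33.

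Among the 225 sums, both siTRMT6 libraries lay above both controls in 32 (14.2%), against 18.0% of all sums tested. Both lay below in 19 (8.44%), against 8.85%. These are unscaled reads, and both shares were near the background. No control reads were listed for 24 of the 32, and no siTRMT6 reads for 9 of the 19. Such sums passed the filter only through the condition in which they were high. Their separation is therefore no support for a difference. Of the 32, MAPK8IP3, a kinesin adaptor, had 0, 0, 44 and 15 reads in control 1, control 2, siTRMT6 1 and siTRMT6 2, and SOX4, a neural transcription factor, had 0, 0, 37 and 21. JARID2, a Polycomb partner, had 0, 0, 35 and 7 over 5 positions, and was the only gene with 5 or more positions whose positions all had siTRMT6 reads alone. TH, the first enzyme of noradrenaline synthesis, had 0, 0, 18 and 8. PRRC2A, an RNA-binding protein, had 0, 47, 141 and 57. These genes were chosen after their values were seen.

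Of the 19 sums that were lower, RAI1, a chromatin-associated regulator, had 15 and 38 reads in control 1 and control 2 and none in siTRMT6. DNMT1, the maintenance DNA methyltransferase, had 14 and 17, EGFR, a receptor tyrosine kinase, had 11 and 19, and UNC5B, a netrin receptor, had 20 and 26, with none in siTRMT6. MYCN had 50, 53, 48 and 29 reads in the 4 libraries in the same order as above, groups that nearly touched. These genes too were chosen after their values were seen.

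Nearly all genes with many positions held both conditions. Of the 84 genes with 5 or more, 83 had positions of both directions, 23 had reads in all 4 libraries, 47 in 3 and 14 in 2. With 5 or more positions and directions split near evenly, most genes would hold both, so this is a description only. The median over these genes of the share of higher positions was 57.1%, and few positions per gene allow only coarse shares. It is a different measure from the 50.1% of all deep coding positions, which pools positions, so the 2 are not compared. The median log2 of their summed reads, siTRMT6 over control, was 0.07 (quartiles -0.54 and 0.63). TRRAP, a scaffold of histone acetyltransferase complexes, had 8 positions in control 2 with 63 reads, 1 in siTRMT6 1 with 7 and none in the other libraries. SND1, a nuclease-domain RNA-binding protein, had 11, 39, 0 and 8 reads in the 4 libraries, and SAFB, which binds the nuclear scaffold, had 15, 49, 0 and 20. At the other end, SART1, a splicing factor, had 0, 16, 82 and 17, UBAP2L had 8, 0, 28 and 15, and SRRM1 had 0, 9, 43 and 0. In TRRAP and SRRM1 the difference rests on control 2 and siTRMT6 1 alone.

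Long-mRNA genes were also read by function, over 11 lists chosen with earlier results of these data known. Of 24 cytoskeletal linkers and scaffolds, 15 had deep coding positions, 56 in all, 28 higher and 28 lower. Besides the spectrins, MAP1B had 0, 142, 0 and 81 reads over 5 positions in control 1, control 2, siTRMT6 1 and siTRMT6 2, and NES, the filament protein nestin of neural progenitors, had 0, 32, 28 and 22 over 3. Of 15 dynein and kinesin genes 6 had 29 positions, 15 higher and 14 lower; KIF5C, a neuronal kinesin, had 20 reads in control 2 and 12 in siTRMT6 1. KIF26B had 0, 18, 30 and 10 reads, and KIF26A had 32 reads in siTRMT6 1 at 1 position.

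Of 17 histone methyltransferases and acetyltransferases, 14 had 43 positions, 21 higher and 22 lower. SETD1A had 0, 37, 107 and 9 reads over 8 positions in the same library order, WHSC1 (now NSD2) had 10, 11, 37 and 0 over 6, KMT2A had 0, 40, 27 and 0 over 5 and KMT2B had 19, 16, 23 and 13 over 4. These are enzymes that mark active or elongating chromatin. Of 25 chromatin remodellers 16 had 78 positions, 42 higher and 36 lower, the most of any list. Besides the genes above, ARID1B had 21, 39, 42 and 9 reads over 9 positions.

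Of 22 translation and mRNA-binding genes, 13 had 54 positions, 32 higher and 22 lower, 59.3% higher against 50.1% of all deep coding positions. PRRC2A had 5 higher and 1 lower, with 28 to 47 reads at each. Of 18 genes of transcription machinery and coactivators 9 had 26 positions, 10 higher and 16 lower, of which TRRAP gave 8 of the lower. POLR2A, the largest subunit of RNA polymerase II, had 0, 14, 21 and 14 reads over 3 positions, and MED1, a Mediator subunit, had 13, 17, 15 and 0.

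Of 20 genes of DNA replication, repair and mitosis, 8 had 33 positions, 20 higher and 13 lower. Their median was 20 reads per position, against 9 over all deep coding positions. MKI67 had 0, 113, 128 and 26 reads over 6 positions, MDC1, a mediator of the DNA damage response, had 51, 0, 25 and 59 over 6, and CENPF, a kinetochore protein, had 0, 31, 28 and 7 over 5. MDC1 was read in control 1 and not in control 2, the reverse of MKI67.

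Of 34 presynaptic and axonal genes, 11 had 25 positions, 11 higher and 14 lower. PLXNA1, a semaphorin receptor, had 0, 15, 56 and 11 reads over 5 positions, and BSN, the presynaptic scaffold bassoon, had 0, 31, 15 and 0 over 4. Of 25 signalling genes 8 had 24 positions, 10 higher and 14 lower, of which LRP5 held 11. RET, a receptor tyrosine kinase of neural crest cells, had 44 reads in control 2 at 2 positions and none elsewhere, and IGF1R had 14 in control 2 and 6 in siTRMT6 1.

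Of 16 giant ubiquitin ligases, 7 had 15 positions, 6 higher and 9 lower. HUWE1 had 17 reads in control 2, 13 in siTRMT6 1 and 9 in siTRMT6 2, from 9036 to 10250 nt. HECTD4 had 6 and 8 reads in the controls, and RNF213 had 9 in control 2 and 16 in siTRMT6 1. Of 12 genes of lipid and central metabolism 5 had 14 positions, 6 higher and 8 lower. SREBF2, the transcription factor of cholesterol synthesis, had 0, 64, 15 and 7 reads over 6 positions. Direction in all these lists counts listed positions, nearly all of 1 library, and no list was tested.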

How the data were processed

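Per the labels' protocols, poly(A) RNA was fragmented and immunoprecipitated with an m1A antibody; per the submitters' processing notes, FastQC 0.11.3, STAR and hg38 were used. The sources used here do not give the caller, the counting rule or the authors' test. The authors deposited 1 table of 25539 lines with 4 columns of counts per position, their log2 fold change, and p-values before and after adjustment. The lines were reduced to 1 record per position. Each position was given the gene with most coding lines (23 members were listed for more than 1 gene). Sites are printed counting from 1: all 10 mitochondrial transcript positions matched RefSeq gene spans (GRCh38.p14) when sites were taken to count from 0, and none when from 1. Of the 1372 genes, 1369 matched RefSeq by symbol or synonym, and 2617 of their 2619 positions lay inside the span.

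Counts of the whole table were tested with edgeR 4.0.16 in R 4.3.3 (TMM, filterByExpr with a minimum count of 10, quasi-likelihood test, Benjamini-Hochberg adjustment over all positions or sums), with listed reads as library sizes; DESeq2 1.42.0 was an alternative. The fits were also run on simulated gene sums, with larger library totals and far less spread between libraries than the listed counts. That run therefore does not show how well the fits work on these counts. Shares per library were compared by exact permutation. Named positions and genes followed a rule: the 12 genes with the most positions, the 3 highest counts of each library, called positions, up to 10 positions of several libraries, the 5 farthest genes, those at the threshold, up to 4 genes per list and 6 joined regions; INF2, PLEKHA5 and genes said to be chosen after their values were seen fall outside it, as do those named for the most extreme sums, regions and spacing. Members and lists were chosen with earlier results of these data known. No genome was used, so no sequence around the positions is printed.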

Additional observations from a re-analysis of the deposited data

How the results depend on the processing

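The count of 8 deep coding calls was 0 with DESeq2, 0 without the filter and 0 with the replicate number as a block (smallest adjusted edgeR p 0.770). It was 5 of 7 tested above 2000 nt, 8 of 12 with DESeq2's size factors and 12 of 19 above 500 nt, of which 4 were lower. Over all positions that passed the filter, 22 of 34 (64.7%) were called, so these counts follow the number tested. Fits without 1 library leave 1 library in a condition, so their calls are not counted here. Without the filter, 0 positions had an unadjusted p under 0.05, and with DESeq2 4 had. The gene sums gave 0 calls under every alternative run with all 4 libraries. The column numbers share only a number: deviations from the group means correlated at 0.13 over positions and 0.04 over genes. With the replicate block the share difference stays 2.32 percentage points by construction, and the pairs gave 5.41 and -0.77. Leaving out 1 library gave -0.39 (without control 1) to 5.04; the cause was not tested. The share of joined control regions with siTRMT6 reads was 21.5% with joining at 50 nt, and 8.67% to 44.6% when 1 library was left out. The POM121C and PDZD4 positions, which were not called, turned to log2 0.29 and 0.58 without siTRMT6 1, and over the libraries left out they ran from -7.15 and -6.43 (without siTRMT6 2); the cause was not tested. Thresholds of 500 and 2000 nt kept 4058 and 1175 positions, and 131 and 32 genes with 5 or more. Without control 2 or siTRMT6 1, 1491 and 1672 positions and 32 and 29 such genes were left. Counts near the smallest listed value limit the precision of most positions.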

Other observations

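By chromosome, deep coding positions were spread much like all listed positions. Chromosome 19 held 247 of them in 132 genes, 9.42% against 9.97% of all positions, chromosome 1 held 236 in 125 genes and chromosome 16 held 173 in 78 genes (6.60% against 6.42%). Positions per gene were 1.91 for deep coding, 1.67 for early coding, 1.41 for the 3' UTR and 1.32 for the 5' UTR. Summed reads by condition were 14927 in the controls and 15423 in siTRMT6 for deep coding positions, against 18109 and 17112 for early coding positions. These are descriptions of the same 4 libraries and were not tested.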
